A study of Mus musculus with 6 samples.

Results

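The interferon-stimulated effector genes are the antiviral and GTPase genes that cells switch on after interferon, and 43 of them were taken here by name from a set list. That list was chosen with earlier results of these data known. Of these 43, 42 had a row in the gene table of 24848 symbols, and Rnf213, a large ubiquitin ligase, was not analysed here. RNA was sequenced from 3 cultures of RAW 264.7 cells with an APOBEC1 knockout (KO) and from 3 cultures of RAW 264.7 cells labelled WT, each extracted from its own plate. RAW 264.7 is a mouse macrophage line that came from a virus-induced tumour of a BALB/c mouse, and all cultures grew in the same medium with no interferon or other stimulus named in the labels. APOBEC1 is a cytidine deaminase that edits C to U in RNA, and the series was made to set RNA editing measured from Sanger traces against RNA sequencing. Neither the method of the knockout nor the number of clones behind it is given in the labels, so an effect of APOBEC1 and other differences between these lines cannot be told apart.

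Type I interferons bind a pair of receptor chains whose kinases activate transcription factors, STAT2 and IRF9 among them, that bind the interferon-stimulated response element in the promoters of target genes. Interferon gamma acts through a different element, the gamma-activated site. The products of the target genes act against viruses and intracellular bacteria in several ways: they degrade or bind foreign RNA, block membrane fusion, deplete nucleotides, tag proteins with ISG15 or attack the vacuoles of microbes. Macrophages keep a part of this programme on without added interferon.

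The libraries held 59768682 to 70411383 reads in KO and 50493447 to 67392191 reads in WT, recovered from the deposited CPM (read counts scaled to each library's total), and 3 reads, the limit that a count of 0 allows, were worth 0.0426 to 0.0594 CPM. Such limits cover counting error only. Levels are means ± SD over the 3 libraries of a group, and log2 fold changes (KO over WT) are estimates ± SE. Apobec1 itself (ENSMUSG00000040613.14, chr6:122577792-122602444 in mm10) stood at 339, 340 and 361 CPM in KO and 373, 431 and 396 CPM in WT. The groups did not overlap, with an exact two-sided permutation p of 0.1, the smallest that 3 against 3 libraries allow. Limma did not call Apobec1 (log2 fold change -0.20 ± 0.07, adjusted p = 0.0663), though 4 of 20 alternative settings did. Its RNA was present in every KO library and the method of the knockout is not given, so its level does not check the genotype labels. All 12 macrophage markers examined were detected, with a summed level of 3709 to 4210 CPM in KO and 3381 to 3638 CPM in WT. They moved both ways by limma: Lyz2 (1238 ± 121 CPM in KO, 708 ± 49.0 in WT), Spi1 and Mertk were called higher, and Adgre1 and Fcgr1 lower. Spi1 (log2 fold change 0.39) and Mertk (0.33) lie on chromosome 2, whose tested genes had a median of 0.34. With each library left out in turn, Mertk and Fcgr1 were each called in 3 of 6 fits. Markers of T, B, NK and mast cells, fibroblasts, epithelium and endothelium each stayed under 1 CPM in every library. The neutrophil gene S100a8 had 3.12 to 4.55 CPM in KO and 0.856 to 1.07 CPM in WT, while Ly6g, S100a9 and Retnlg were listed at 0 in every library. The dendritic cell genes Tcf4 (130 ± 7.83 CPM in KO, 195 ± 18.8 in WT) and Zbtb46 (1.62 ± 0.184 in KO, 4.34 ± 0.426 in WT) were expressed too, while the other listed dendritic cell markers stayed under 1 CPM. The part of S100a8, Tcf4 and Zbtb46 in the members' results was not tested.

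Promoter sequence was available for 34 of the 43 listed members (RefSeq, GRCm38.p6, 250 bases before to 50 after each gene's start). The letters GAAA, NN and GAAA in a row (N being any base), a core of the interferon-stimulated response element, were present on either strand in the promoters of 18 of these 34 genes (52.9%), against 3.99% of all 27025 genes with a promoter. The letters TTC, NNN and GAA in a row, a gamma-activated site, were found in 12 of 34 (35.3%) against 9.55%. GGAA, NN and GAAA in a row, the composite element that the macrophage factors PU.1 and IRF8 are known to bind together, was found in 7 of 34 (20.6%) against 3.16%. The windows shown are from 7 called members with such a match before the start, and from Oas1a, which was not called, so that matches in higher, lower and uncalled genes can be compared. They are written 5′ to 3′ on the strand of the gene, with the match in capitals and neighbouring matches that overlap as a single run. In the GENCODE annotation used for gene coordinates, Irgm2 starts further upstream than in RefSeq, and so do transcripts of Ifi44.

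Ifit1 (chr19:34640760-34640838, plus strand): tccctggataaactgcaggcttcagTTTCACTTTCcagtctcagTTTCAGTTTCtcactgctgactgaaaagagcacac
Isg15 (chr4:156200850-156200921, minus strand): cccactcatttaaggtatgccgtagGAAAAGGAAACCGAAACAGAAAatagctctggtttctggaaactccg
Gbp7 (chr3:142530258-142530317, plus strand): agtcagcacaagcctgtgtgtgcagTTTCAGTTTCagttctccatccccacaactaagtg
Gbp3 (chr3:142559974-142560039, plus strand): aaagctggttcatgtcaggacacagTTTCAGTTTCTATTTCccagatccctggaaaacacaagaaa
Oas3 (chr5:120777700-120777759, minus strand): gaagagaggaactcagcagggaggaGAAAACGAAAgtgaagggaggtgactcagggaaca
Irgm2 (chr11:58214888-58214947, plus strand): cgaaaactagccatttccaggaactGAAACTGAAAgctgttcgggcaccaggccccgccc
Oas1a (chr5:120907526-120907570, minus strand): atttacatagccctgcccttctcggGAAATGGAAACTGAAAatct
Ifi44 (composite element, chr3:151749934-151749983, minus strand): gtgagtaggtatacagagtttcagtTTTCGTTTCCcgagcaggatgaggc

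In these cells, for which the labels name no stimulus, the members moved in both directions between KO and WT. Of the 42 measured members, 25 reached 1 CPM or more in 3 or more libraries and were tested with limma on log2(CPM + 0.5), with p adjusted by the Benjamini-Hochberg method over all 10614 tested genes. At an adjusted p under 0.05, 6 were called higher in KO (Ifitm3, Ifit1, Oasl1, Samhd1, Trim30a and Tor3a) and 6 lower (Ifi44, Usp18, Oas3, Irgm2, Igtp and Lgals3bp). These were 48% of the 25, beside a background of 30.4% of all tested genes called, 13.5% higher and 16.9% lower. The other 13 tested members were not called, and the median log2 fold change of the 25 (KO over WT) was -0.01, beside -0.02 over all tested genes, while the median size was 0.30 beside 0.18. The KO and WT libraries did not overlap for 16 of the 25, with KO above in 7 and below in 9, beside 46.4% of all tested genes. Ifit1 and Ifi44 passed the filter only through the group in which they were high. In RNA from whole cultures, fewer cells expressing a gene and less of its RNA per cell cannot be told apart.

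**Figure D1:**
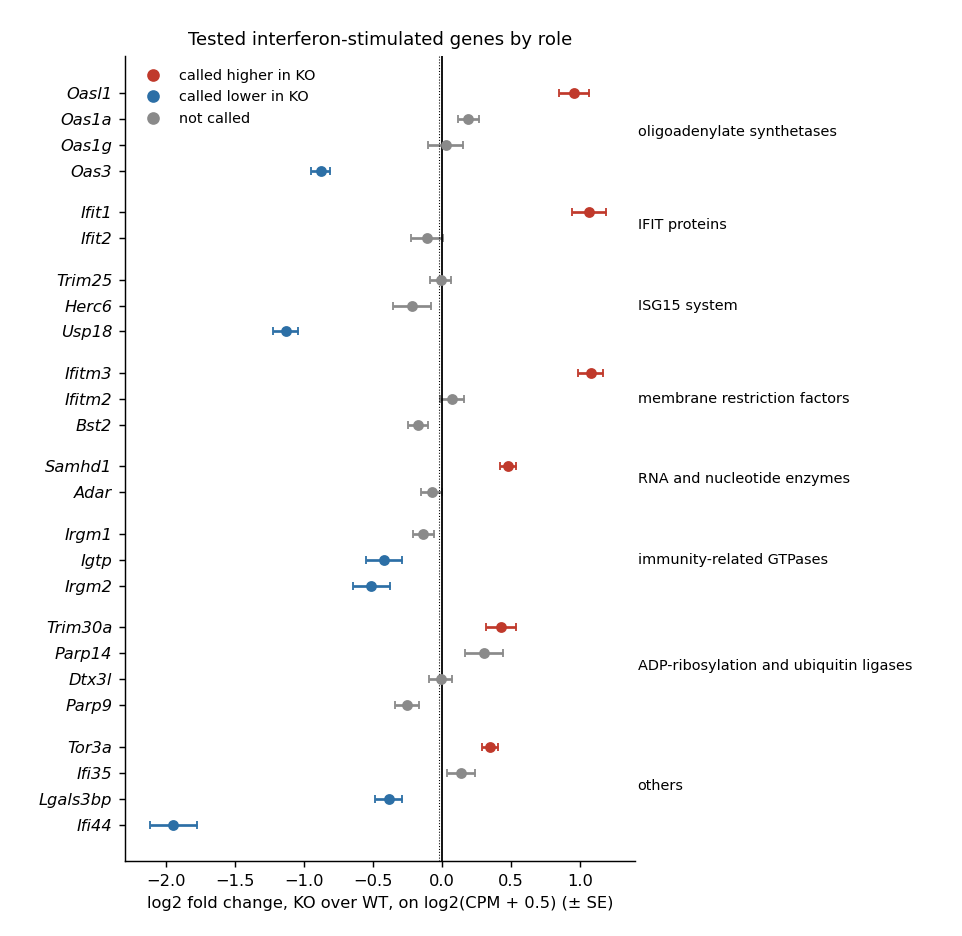
Log2 fold change, KO over WT, of the 25 tested interferon-stimulated genes by role, on log2(CPM + 0.5), with bars of 1 SE from limma; colour marks the call and the dotted line the median of all tested genes (-0.02). Called genes lie on both sides, Ifi44 at -1.95 and Ifitm3 at 1.08 being the extremes.

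The remaining 17 measured members lay under the filter. An edgeR quasi-likelihood test on the recovered reads with no filter, chosen after these low levels were seen, covered 17165 genes, of which it called 23.4%, and 41 members. It called 11 members higher and 6 lower: it added Gbp7, Isg15, Oasl2, Gbp3 and Rtp4 to the higher genes and Oas2 to the lower ones, and did not call Igtp. Fold changes on log2(CPM + 0.5) understate the change of low genes, so edgeR values are named as such and all other fold changes are from limma.

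Most of the RNA of this gene set came from few genes. Trim25, Samhd1, Ifitm2 and Ifitm3 held 61.8% of its summed CPM. Per kilobase of exon, Ifitm2 (295 CPM per kb in KO, 281 in WT) and Ifitm3 (257 in KO, 121 in WT) were the highest, followed by Trim25 (34.8 in KO, 35.0 in WT) and Bst2 (28.9 in KO, 32.7 in WT). The summed level of all members was 1185, 1246 and 1223 CPM in the KO libraries and 1108, 1085 and 1068 CPM in the WT libraries, so every KO library lay above every WT library. Ifitm3 (174 ± 14.0 CPM in KO, 82.2 ± 7.82 in WT) and Samhd1 (227 ± 3.45 in KO, 162 ± 4.61 in WT) were both called higher in KO. They are among the 4 genes that carry most of this sum, while Trim25 and Ifitm2 were not called. The median log2 fold change of the 25 tested members was -0.01, so the higher sum is not a rise of the whole set. Within the groups, 8, 14 and 17 of the 25 tested members lay above their group's mean in KO replicates 1, 2 and 3, and 10, 16 and 13 in WT replicates 1, 2 and 3.

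The oligoadenylate synthetases sense double-stranded RNA and make oligoadenylates, which set off the breakdown of RNA in the cell. Oas3 (ENSMUSG00000032661.9, chr5:120753098-120777661) had 15.7, 16.4 and 17.0 CPM in KO, against 29.7, 30.4 and 31.5 CPM in WT. The groups lay far apart and were narrow within themselves. Oas3 fell by 0.88 ± 0.07 on the log2 scale (limma, adjusted p = 8.1e-05), and its promoter holds the match shown above. Oas2 lay under the filter with 23, 17 and 28 reads in KO and 41, 101 and 57 reads in WT, again without overlap, and edgeR called it lower (log2 fold change -1.62, adjusted p = 0.000216).

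Oasl1, which in mice represses translation of the Irf7 messenger, moved the other way. It had 2.66, 3.03 and 3.24 CPM in KO, against 1.37, 1.16 and 1.34 CPM in WT, and every KO library lay above every WT library. Its log2 fold change was 0.96 ± 0.11 (limma, adjusted p = 0.000516). Its neighbour Oasl2, an enzymatically active relative, gave 12, 15 and 24 reads in KO and 6, 4 and 1 in WT (edgeR, log2 fold change 2.07, adjusted p = 0.00815). The groups did not overlap, at very low counts in WT. Oas1a (17.2 ± 0.164 CPM in KO, 15.0 ± 0.800 in WT) and Oas1g (6.45 ± 0.676 in KO, 6.35 ± 0.995 in WT) were not called by limma, at adjusted p of 0.0911 and 0.895. Of the 100-base words of Oas1a, 40.9% also occur in Oas1g, so reads could be split between them. Oas1a passed the threshold in 4 of 20 alternative settings, among them TMM scaling (adjusted p = 0.0386, limma).

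The genes called within the Oas locus on chromosome 5 were all lower in KO. Counted from Oas2 along the chromosome, Oas2, Oas3 and the non-member Oas1c, 69.9 kb away, were called lower, with Oas1c at 4.17 ± 0.249 CPM in KO and 6.67 ± 0.295 in WT (limma log2 fold change -0.62 ± 0.09, adjusted p = 0.00159). Oas1h, 131 kb away, was called lower by edgeR on few reads (log2 fold change -1.69, adjusted p = 0.0108). Oas1g and Oas1a at the far end were not called. Beyond them Rph3a, 210 kb from Oas2 and not a member, went the other way. It had 0.291 ± 0.0246 CPM in KO, was listed at 0 in WT and was called higher by edgeR (adjusted p = 3.12e-05).

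**Figure D2:**
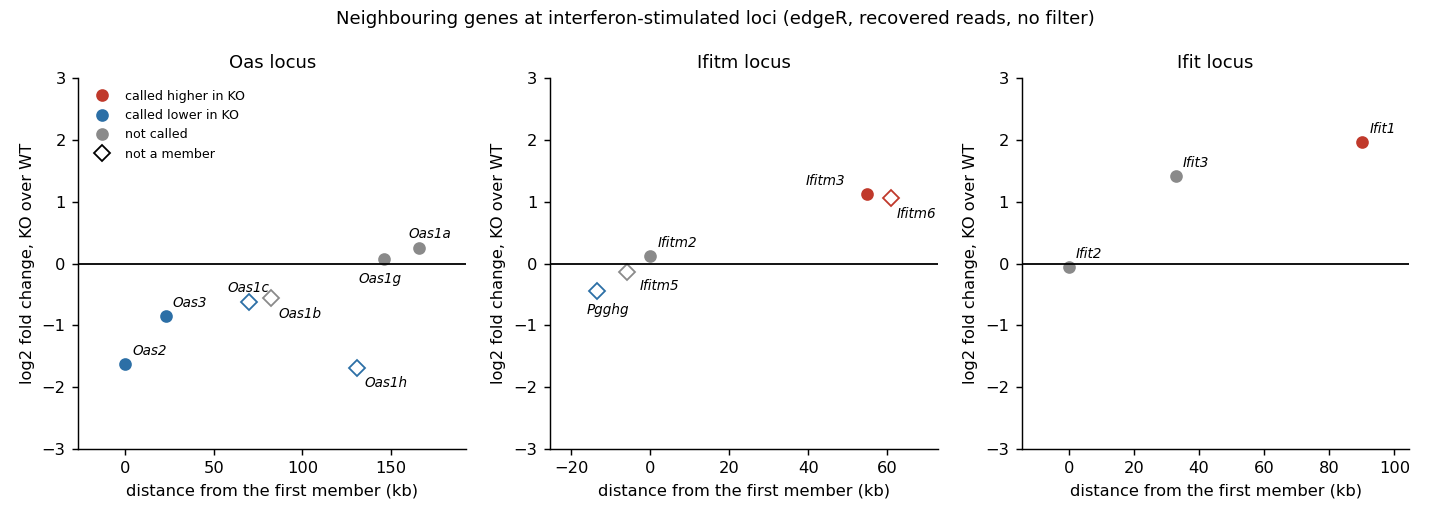
Log2 fold change, KO over WT, from edgeR on recovered reads with no filter, against distance in kb from the first member of each locus; genes within 10 kb of the span of the members and at a mean level of at least 0.1 CPM are drawn, members as filled circles and other genes as open diamonds. Oas2, Oas3, Oas1c and Oas1h are called lower in the Oas locus, and in the Ifitm locus Ifitm3 and Ifitm6 are called higher and Pgghg lower.

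The IFIT proteins bind foreign RNA, and IFIT1 recognises caps that lack ribose methylation. Ifit1 (ENSMUSG00000034459.8, chr19:34640871-34650009) had 1.12, 1.14 and 1.38 CPM in KO, against 0.376, 0.341 and 0.240 CPM in WT. The KO libraries, with 239 reads in all beside 56 in WT, all lay above the WT libraries. Its log2 fold change was 1.07 ± 0.12 with limma (adjusted p = 0.000524) and 1.98 with edgeR on the reads. Ifit2, in the same cluster, was at 10.4 ± 1.23 CPM in KO and 11.2 ± 1.21 in WT and was not called. Ifit3 gave 8, 16 and 25 reads in KO and 3, 11 and 3 in WT; the groups overlapped and edgeR did not call it (adjusted p = 0.0575). Of its 100-base words, 31.7% are shared with Ifit3b. Slc16a12, the next gene beyond Ifit1 and not a member, was lower in KO, at 0.193 ± 0.0542 CPM in KO and 2.43 ± 0.444 in WT. Its limma log2 fold change was -2.07 ± 0.14 (adjusted p = 3.47e-05). Slc16a12 passed the filter only through WT, where it is high, so it had to differ to be tested.

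ISG15 is a ubiquitin-like protein that HERC6 attaches to targets in mice and USP18 removes; USP18 also binds the IFNAR2 receptor chain and damps its signal. Usp18 (ENSMUSG00000030107.10, chr6:121245906-121270917) had 6.59, 7.58 and 6.39 CPM in KO, against 15.2, 16.0 and 15.7 CPM in WT. All KO libraries were below all WT libraries, and Usp18 fell by 1.14 ± 0.09 on the log2 scale (limma, adjusted p = 7.1e-05). Isg15 itself was near the floor, with 34, 41 and 28 reads in KO and 4, 7 and 12 in WT. Its groups did not overlap and edgeR called it higher (log2 fold change 2.05, adjusted p = 0.000628), opposite to Usp18. Herc6 had 12.2 ± 0.839 CPM in KO and 14.5 ± 2.70 in WT, and Trim25, a ubiquitin ligase for the RNA sensor RIG-I, had 200 ± 15.3 in KO and 201 ± 11.1 in WT. Neither was called.

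Among the membrane restriction factors, IFITM proteins hinder the fusion of enveloped viruses and BST2 tethers budding virions. Ifitm3 (ENSMUSG00000025492.6, chr7:141009586-141010770) had 166, 190 and 165 CPM in KO, against 90.5, 74.9 and 81.3 CPM in WT. The lowest KO library lay well above the highest WT library, and the log2 fold change was 1.08 ± 0.09 (limma, adjusted p = 0.000101). Its next neighbour Ifitm6, which is not a member, was higher by nearly the same amount, at 32.9 ± 0.596 CPM in KO and 16.3 ± 1.39 in WT (limma log2 fold change 1.00 ± 0.08, adjusted p = 9.3e-05). Ifitm2, 54.7 kb from Ifitm3, stood at 193 ± 14.2 CPM in KO and 184 ± 17.7 in WT and was not called; 34.9% of its 100-base words occur in other genes. Pgghg, on the other side of Ifitm2 and not a member, was lower in KO (8.12 ± 0.974 CPM in KO, 11.4 ± 1.22 in WT, limma log2 fold change -0.47 ± 0.12, adjusted p = 0.0193). Ifitm1 had 5 reads in KO and 9 in WT over all libraries. Bst2 (26.1 ± 0.544 CPM in KO, 29.5 ± 1.91 in WT) was below WT in every KO library without passing the threshold (adjusted p = 0.113, limma). Rtp4, an interferon-induced inhibitor of flaviviruses, gave 25, 13 and 28 reads in KO and 7, 9 and 5 in WT (edgeR, log2 fold change 1.52, adjusted p = 0.00736), and its groups did not overlap.

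**Figure D3:**
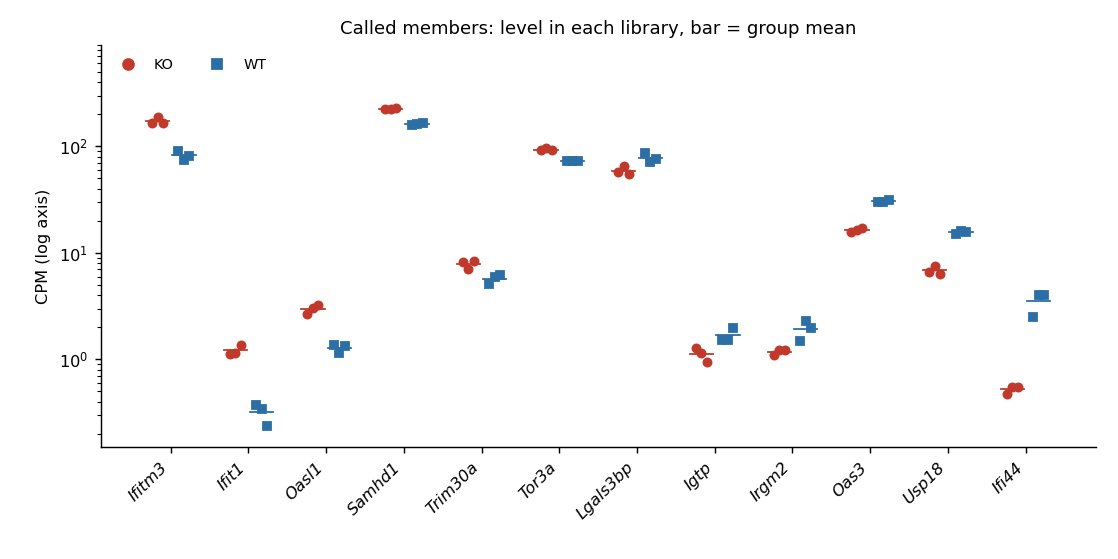
Level in CPM (log axis) of the 12 called members in each KO library (red circles) and WT library (blue squares), with the group mean as a bar. No gene's groups overlap; Samhd1 and Ifitm3 are the most abundant, and Ifit1 in WT and Ifi44 in KO lie below 1 CPM in every library.

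The RNA and nucleotide enzymes were led by Samhd1, which hydrolyses deoxynucleotides and so starves reverse transcription. Samhd1 (ENSMUSG00000027639.16, chr2:157097533-157135265) had 224, 225 and 230 CPM in KO, against 157, 163 and 166 CPM in WT. The groups were tight and separate (log2 fold change 0.48 ± 0.06, limma, adjusted p = 0.000565). Chromosome 2 as a whole stood higher in KO, with a median log2 fold change of 0.34 over 856 tested genes. The medians of the other chromosomes lay between -0.16 and 0.00. The lowest was that of chromosome 6, which holds Usp18, Herc6 and Apobec1, and the next was -0.07 on chromosome 17. Usp18 kept its call when each chromosome was centred on its median. Centred on its chromosome's median, Samhd1 was no longer called (0.15, adjusted p = 0.107, limma). Adar, the adenosine deaminase that edits double-stranded RNA, was at 76.6 ± 5.82 CPM in KO and 80.7 ± 4.94 in WT and was not called; 16.8% of its exon length overlaps Chrnb2 on the opposite strand. Rsad2, which makes a chain-terminating nucleotide, Cmpk2, its neighbour and a mitochondrial nucleotide kinase, and Isg20, an exonuclease, summed to 38, 16 and 8 reads in KO and 20, 9 and 18 reads in WT, and none was called by edgeR.

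The dynamin-like GTPases, which trap viral nucleocapsids, had almost no reads. Mx2 gave 1, 1 and 4 reads in KO and 5, 1 and 1 in WT, and Mx1 was listed at 0 in 5 libraries with 1 read in WT replicate 3. No difference was detectable at this depth.

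The guanylate-binding proteins coat the vacuoles of bacteria and parasites, and none passed the filter. Gbp7 (ENSMUSG00000040253.15, chr3:142530342-142550149) came closest, with 70, 66 and 76 reads in KO, against 11, 9 and 19 reads in WT, or 1.08 ± 0.0761 CPM in KO and 0.226 ± 0.0961 in WT. Its groups did not overlap, and edgeR gave a log2 fold change of 2.32 (adjusted p = 1.61e-05). Gbp3, its neighbour on chromosome 3, gave 25, 20 and 28 reads in KO and 5, 8 and 10 in WT, also without overlap (edgeR, 1.54, adjusted p = 0.00303). Gbp2, with 7 reads in KO and 9 in WT, and Gbp5, with 0 in KO and 2 in WT, were at the floor. Both called genes have a response-element match shortly before the start, as printed above, and the promoters of the uncalled Gbp2 and Gbp5 hold one too.

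**Figure D4:**
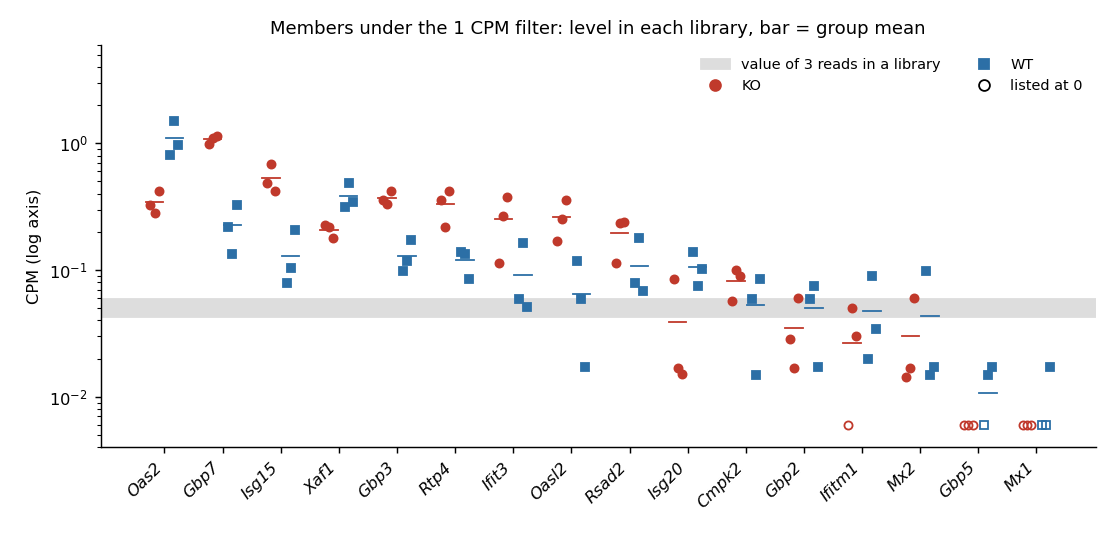
Level in CPM (log axis) of the 16 members under the filter that had at least 1 read, in each KO library (red circles) and WT library (blue squares), with the group mean as a bar; open symbols are libraries listed at 0 and the grey band is the value of 3 reads. Gbp7, Isg15, Gbp3, Rtp4 and Oasl2 are higher in every KO library, Oas2 and Xaf1 lower, and Mx1, Mx2, Gbp2, Gbp5 and Ifitm1 lie at or under the band in most libraries.

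The immunity-related GTPases guard or attack the same vacuoles, with IRGM1, IRGM2 and IGTP as regulators of the effectors. Irgm2 (ENSMUSG00000069874.7, chr11:58199618-58222782) had 1.11, 1.22 and 1.22 CPM in KO, against 1.51, 2.27 and 1.99 CPM in WT. The groups did not overlap, though WT libraries spread more than KO libraries, and Irgm2 fell by 0.51 ± 0.14 on the log2 scale (limma, adjusted p = 0.0241). Igtp, from the same locus, was at 1.13 ± 0.168 CPM in KO and 1.68 ± 0.265 in WT (limma, -0.42 ± 0.13, adjusted p = 0.0444). Both calls depended on the setting. Irgm2 was no longer called when KO replicate 1, 2 or 3 or WT replicate 3 was left out (adjusted p up to 0.0953, limma) or under quantile normalization (-0.19, adjusted p = 0.281, limma), and Igtp was called in 7 of 19 alternatives. The 2 genes share 162 bases of exon on the same strand, so some reads could belong to either. Irgm1 had 24.5 ± 1.78 CPM in KO and 26.9 ± 0.159 in WT and was not called, with KO below WT in every library. The effector Iigp1 was listed at 0 throughout; since B2m, a gene of nearly every cell, was also listed at 0 in all libraries, such a 0 is not read as absence.

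Of the ADP-ribosylation and ubiquitin ligases, Dtx3l, a ubiquitin ligase that works as a pair with PARP9, had 22.0, 24.7 and 24.5 CPM in KO, against 22.1, 25.3 and 24.2 CPM in WT. Its groups overlapped almost fully (log2 fold change -0.01 ± 0.08, adjusted p = 0.949, limma). Parp9 itself was at 20.5 ± 0.553 CPM in KO and 24.6 ± 2.25 in WT, without overlap but not called (-0.25 ± 0.09, adjusted p = 0.0588, limma). The pair share 458 bases of exon on opposite strands. Parp14, a mono-ADP-ribosyltransferase, was at 6.18 ± 0.653 CPM in KO and 4.95 ± 0.925 in WT and was not called. Trim30a, known in mice as a brake on Toll-like receptor signalling, had 7.89 ± 0.700 CPM in KO and 5.75 ± 0.578 in WT and rose by 0.43 ± 0.11 (limma, adjusted p = 0.0201). Its call was lost without KO replicate 1 or 3 (adjusted p of 0.0891 and 0.0754, limma).

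Of the other members, Ifi44, a cytoplasmic protein of little-known function, showed the largest difference of the 25 tested. Ifi44 (ENSMUSG00000028037.13, chr3:151730922-151749960) had 0.469, 0.552 and 0.555 CPM in KO, against 2.50, 4.07 and 4.02 CPM in WT. Even the lowest WT library was far above the KO libraries, and the mean was 6.72-fold higher in WT. Ifi44 fell by 1.95 ± 0.17 (limma, adjusted p = 0.000137), or 2.70 with edgeR on the reads. Lgals3bp, a secreted galectin-binding glycoprotein, had 59.3 ± 5.24 CPM in KO and 77.7 ± 8.16 in WT and fell by 0.39 ± 0.10 (limma, adjusted p = 0.0196). That call was lost without KO replicate 1, KO replicate 3 or WT replicate 3 (adjusted p up to 0.0807, limma). Tor3a, a torsin ATPase of the endoplasmic reticulum, had 93.2 ± 2.41 CPM in KO and 73.2 ± 0.266 in WT and rose by 0.35 ± 0.06 (limma, adjusted p = 0.00293). Ifi35, a leucine-zipper protein, was at 5.98 ± 0.0618 CPM in KO and 5.40 ± 0.595 in WT and was not called. Xaf1, which opposes the apoptosis inhibitor XIAP, gave 16, 13 and 12 reads in KO and 16, 33 and 20 in WT; as CPM every KO library lay below every WT library, and edgeR did not call it (-0.84, adjusted p = 0.0581).

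Letters were also counted by direction. Among called members with a promoter, counting the low ones called by edgeR, the response-element letters were present in 6 of 9 higher genes and 3 of 5 lower genes. The composite letters were found in 0 of 9 higher and 3 of 5 lower genes (Ifi44, Irgm2 and Igtp), but in Irgm2 and Igtp it overlaps the response-element match. These are counts of letters in a short window with no test, and the uncalled Dtx3l, Trim25, Gbp5 and Adar hold the composite letters too. In Ifitm3 the 2 response-element matches lie after the start and are not printed.

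The genes that make, receive and relay interferon were listed apart from the members, also with earlier results of these data known. Of 15 interferon genes, 14 were listed at 0 in all libraries and Ifna13 had 1 read, in KO replicate 2. Of 6 receptor genes, 5 were tested. In KO, 3 were called higher and none lower, beside 13.5% higher and 16.9% lower over all tested genes. The 3 called genes, Ifnar2, Il10rb and Ifngr2, lie close together on chromosome 16, so they are not separate loci. Ifnar1, between them, was above WT in every KO library but not called (0.15 ± 0.06, adjusted p = 0.096, limma). Ifngr1, on chromosome 10, was not called (-0.05 ± 0.06, adjusted p = 0.619, limma). Ifngr2, a chain of the interferon gamma receptor, was at 99.8 ± 3.99 CPM in KO and 84.7 ± 3.67 in WT (log2 fold change 0.24 ± 0.06, limma, adjusted p = 0.027). Il10rb rose by 0.24 and Ifnar2, the type I receptor chain that USP18 binds, by 0.19. All 3 calls depended on single libraries: with each library left out in turn, Ifngr2 and Il10rb were called in 2 of 6 limma fits each, and Ifnar2 in 1 of 6. None was called without KO replicate 1, KO replicate 2 or WT replicate 3, where the adjusted p was at most 0.119 (limma). Ifngr2 and Ifnar2 were also not called under quantile normalization (adjusted p = 0.123 and 0.0993, limma) or centred on their chromosome's median (0.0597 and 0.0560). Ifnlr1, the interferon lambda chain, was listed at 0 in the KO libraries and had 13, 20 and 12 reads in WT, and edgeR without a filter called it lower (adjusted p = 6.58e-05).

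Of 12 tested kinases and transcription factors, 2 were called higher and 4 lower, beside 13.5% higher and 16.9% lower over all tested genes. Their median log2 fold change was -0.20, beside -0.02 over all tested genes. Irf8, a macrophage lineage factor, had 33.1, 36.7 and 33.2 CPM in KO, against 57.2, 51.9 and 53.0 CPM in WT. All KO libraries were below all WT libraries, and Irf8 fell by 0.65 ± 0.07 (limma, adjusted p = 0.000514). Stat2, which carries the activating domain of the type I complex, was at 11.6 ± 1.23 CPM in KO and 16.0 ± 2.36 in WT and fell by 0.45 ± 0.13 (limma, adjusted p = 0.0319). It was no longer called without KO replicate 1, KO replicate 2, WT replicate 1 or WT replicate 2 (adjusted p up to 0.113, limma), or with no filter (0.0553). Tyk2 and Stat3 each fell by 0.33, and Jak1 rose by 0.32. Tyk2 was no longer called without KO replicate 1, KO replicate 2 or WT replicate 2 (adjusted p up to 0.0956, limma). Of 8 tested negative regulators, 1 was called, beside 30.4% of all tested genes. The phosphatase gene Ptpn1, on chromosome 2, rose by 0.52 ± 0.07 (limma, adjusted p = 0.00153), at 106 ± 5.39 CPM in KO and 73.9 ± 4.90 in WT. Centred on the median of its chromosome it was no longer called (0.18, adjusted p = 0.121, limma).

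Of 12 tested nucleic acid sensors and their effectors, 5 were called lower and none higher, with a median of -0.21, beside 16.9% lower and 13.5% higher over all tested genes. The edgeR test without a filter covered 14 and called 5 lower and 2 higher, Eif2ak2 (log2 fold change 0.34, adjusted p = 0.0139) and Zbp1 (adjusted p = 0.0315, 5, 6 and 3 reads in KO and 1, 0 and 0 in WT), with a median of 0.03. Over all 17165 genes that edgeR test covered, it called 23.4%. Ifih1, which encodes the RNA sensor MDA5, had 0.568, 0.586 and 0.555 CPM in KO, against 2.00, 2.42 and 2.29 CPM in WT, and fell by 1.35 ± 0.11 (limma, adjusted p = 6.79e-05). Ifi203 and Ifi204, of the DNA-binding family, fell by 1.56 ± 0.15 and 1.18 ± 0.12. Ifih1 and Ifi204 passed the filter only through WT, where they are high, so they had to differ to be tested. Ddx58, which encodes RIG-I, fell by 0.43 ± 0.09, and under quantile normalization was at -0.22 and not called (adjusted p = 0.0892, limma).

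Of 35 other tested interferon-stimulated genes, 3 were called higher and 12 lower, with a median of -0.16, beside 13.5% higher and 16.9% lower over all tested genes. With edgeR and no filter, 57 were covered, 3 called higher and 15 lower, beside 23.4% called over all genes, with a median of -0.08. Nlrc5, the activator of MHC class I genes, was at 10.8 ± 1.90 CPM in KO and 26.0 ± 4.78 in WT and fell by 1.23 ± 0.16 (limma, adjusted p = 0.000907). Psmb9, an immunoproteasome subunit, fell by 0.79 ± 0.10, Cd274, which encodes PD-L1, by 0.74 ± 0.14, and Ifi27l2a by 0.89 ± 0.11. Ifi27l2a too reached 1 CPM only in WT. Over all 72 tested genes of these lists, 9 were called higher, 21 lower and 42 neither, beside 30.4% called over all tested genes. Their median was -0.09, beside -0.02 over all tested genes. With edgeR and no filter, 100 were covered, 11 called higher and 25 lower, beside 23.4% called over all genes. That test gave them a median of -0.03, beside -0.02 over all genes. Because these lists were chosen with earlier results of these data known, their counts only describe the listed genes.

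**Figure D5:**
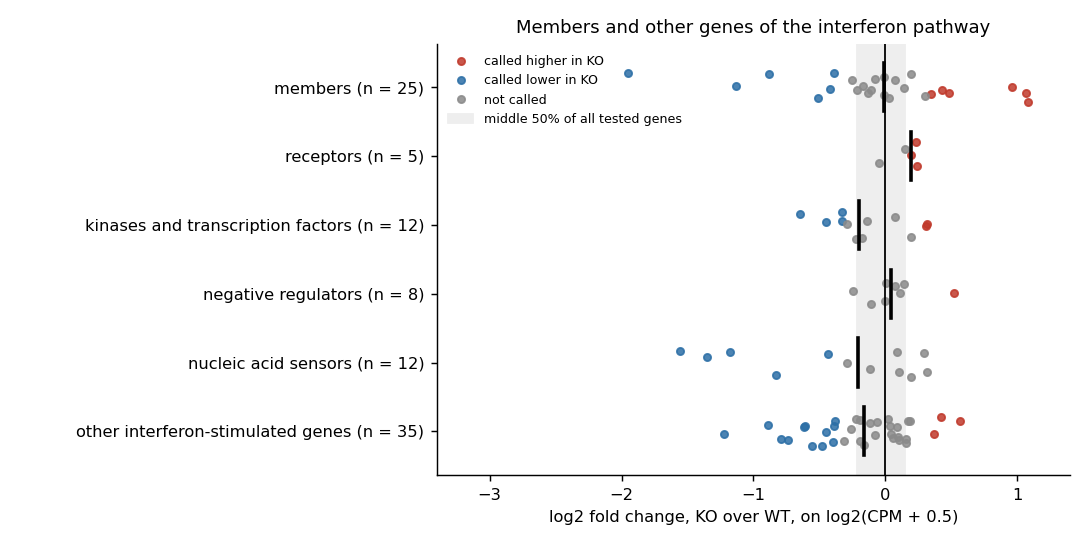
Log2 fold change, KO over WT, on log2(CPM + 0.5), of the tested members and of the other tested genes of the interferon pathway, by list; each point is a gene, colour marks its limma call, the black bar is the list's median and the grey band holds the middle 50% of all tested genes. The members' median is -0.01, with called genes on both sides, and the sensors and other interferon-stimulated genes have medians of -0.21 and -0.16.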

How the data were processed

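Poly(A) RNA libraries (KAPA mRNA HyperPrep) were sequenced as paired-end reads on Illumina HiSeq, per the labels' protocols. STAR 2.6.0a, Trim Galore, FastQC, SAMtools and Picard are named with the build mm10, per the submitters' processing notes. Duplicates were removed from coordinate-sorted alignments, per the file headers, which can lower the level of abundant genes. Counter, annotation and strand setting are not given in the sources, so reads of overlapping genes cannot be assigned with certainty. The authors deposited CPM, counts scaled to each library's total; 100% of values were whole multiples of 1 read (tolerance 0.01), so reads were recovered.

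Genes reaching 1 CPM in 3 or more of the 6 libraries were fitted with limma 3.58.1 in R 4.3.3 (lmFit, eBayes with trend, log2(CPM + 0.5), all 6 libraries, no covariate), and called at a Benjamini-Hochberg adjusted p under 0.05. Alternatives were edgeR 4.0.16, DESeq2 1.42.0, other filters, pseudocounts, scalings and limma options, a block for the replicate number and leaving out each library; edgeR with no filter was added after the data were seen. The code recovered known changes in simulated data, where the changed genes lay above the filter and all genes shared a small spread. That simulation does not cover the calls made under the filter or the spread of these libraries. Values are means ± SD over 3 libraries and fold changes ± SE. Each library came from its own plate of cells, so p-values measure the spread between plates. No pair of libraries was taken for copies.

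Values per library were given by rule for called members that differed by 0.5 or more on the log2 scale and, in role groups with none, for the most abundant member; outside the members, up to 5 called genes per pathway list were named. Oas2, Oasl2, Isg15, Rtp4, Gbp3, Ifit3, Xaf1, Eif2ak2, Zbp1, Ifnlr1 and neighbouring genes were named after their values were seen. The members and lists were chosen with earlier results of these data known. Annotation was GENCODE M21 on mm10, matching 24305 of 24848 symbols. Some genes that the rule selects are left out of the text. RNA editing was not analysed here.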

Additional observations from a re-analysis of the deposited data

How the results depend on the processing

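Of the 12 calls, all were kept under pseudocounts of 0.1 and 1, limma without trend, limma robust and rescaling without Rn45s, 11 under TMM scaling, edgeR and DESeq2 (Igtp lost), and 10 under quantile normalization, no filter and centring on chromosome medians. Members called higher numbered 10 with no filter and 11 with edgeR and no filter; those called lower numbered 3 at a minimum of 5 CPM, where 7 of the 12 were tested and all 7 kept. Leaving out a library kept 8 to 12 of the calls and gave 5 to 7 members higher and 3 to 8 lower, 957 to 1662 genes higher and 1016 to 2099 lower over all tested genes, and 5 to 10 pathway genes higher; without KO replicate 1, 957 and 1016. Equal replicate numbers did not pair the libraries (correlations of deviations of -0.25, -0.64 and -0.17). Between unequal numbers they ran from -0.44 (KO replicate 3, WT replicate 1) to 0.61 (KO replicate 3, WT replicate 2). KO replicate 2 and WT replicate 1 were at 0.58, and the source was not tested. With the replicate number as a block, 891 genes were higher and 1118 lower, and 4 pathway genes were higher. Under that block Trim30a, Igtp, Lgals3bp, Ifngr2, Il10rb, Ifnar2, Stat2, Tyk2, Stat3 and Ddx58 lost their calls. Uncalled genes near 0 changed sign. Oas1g ranged from -0.049 to 0.14, Dtx3l from -0.062 to 0.044 and Trim25 from -0.073 to 0.033 when a library was left out. Under quantile normalization Ifit2 came to 0.019, Ifitm2 to -0.025 and Dtx3l to 0.052. Dtx3l came to 0.038 under TMM scaling, 0.017 with edgeR, 0.017 with DESeq2 and 0.039 with edgeR and no filter. Trim25 came to 0.038 under TMM scaling, 0.036 centred on chromosome medians, 0.017 with edgeR, 0.018 with DESeq2 and 0.039 with edgeR and no filter. The cause was not tested. Depth limits the 16 members under the filter that had reads.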
